A study of Homo sapiens with 8 samples.

Results

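The genes described here are the integrin subunits, the laminin chains and fibronectin. They were chosen by symbol alone, as the protein-coding genes named ITGA or ITGB with a number, ITGAV, ITGAL, ITGAM, ITGAX, ITGAE, ITGAD, LAMA1 to LAMA5, LAMB1 to LAMB4, LAMC1, LAMC3 and FN1. This gave 38 genes, made up of 26 integrin subunits, 11 laminin chains and FN1, among the 27776 genes listed for either cell line. Of these, 37 were listed for at least 1 cell line and 34 for both. ITGA8 was listed for neither line, LAMA4 for CAKI-1 only, and ITGAL and LAMC3 for 769-P only. Genes of integrin-binding proteins that share the letters, the ITGB1BP genes and ITGB3BP, were left out because they do not encode integrins.

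769-P and CAKI-1 are established human cell lines derived from kidney cancers of the clear cell type (ccRCC). Each was kept for 16 hours with or without the branched-chain amino acids (BCAA) isoleucine (0.38 mM), leucine (0.38 mM) and valine (0.17 mM). RNA-seq data of 2 libraries per condition, 8 in all, were available. The study's figure legend gives a higher n for its RNA-seq than these 2 libraries per condition. The 4 groups are 769-P with BCAA, 769-P without BCAA, CAKI-1 with BCAA and CAKI-1 without BCAA, and no group carries a genetic change made for the study. The labels give RPMI 1640 as growth medium for 769-P and MEM for CAKI-1, and the study's methods describe BCAA-depleted medium made from RPMI powder free of amino acids with dialyzed serum. Nothing in the labels says whether the 2 libraries of a condition came from separate cultures, so that p-values measure only the spread between these libraries.

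A value is a normalised read count, which is the number of reads on a gene divided by a size factor of its library. The cell lines were normalised separately, so levels were compared only within a line, and the effect of BCAA, a contrast within a line, was compared between lines. Libraries held 30979773 to 64256834 reads on listed genes. In 769-P both libraries with BCAA were deeper (55829324 and 64256834 reads) than both without (39062721 and 40130258). Of 6 markers fixed for renal carcinoma, 5 had a mean value of at least 10 in each line (PAX8, NNMT, KRT8, KRT18 and VIM), while CA9, a hypoxia-induced gene typical of ccRCC, had at most 3 reads in every library. Endothelial markers had no gene at a mean of 10, with PECAM1, CDH5, VWF and KDR summing to at most 10.3 in any library. All 4 fibroblast markers passed a mean of 10 in CAKI-1 (DCN, LUM, PDGFRB and COL1A1), and their sum was 124814 and 149352 with BCAA against 102290 and 120064 without. The sums of the renal carcinoma markers did not overlap between conditions in either line. They were 84930 to 88984 with BCAA and 122703 to 126682 without in CAKI-1. The 769-P sums were 127504 to 131500 with BCAA and 136661 to 139012 without. By mean value, VIM made up most of this sum in both lines, and COL1A1 most of the fibroblast sum in CAKI-1. The sums therefore do not show how each marker moved. In 769-P, DCN and LUM were at the lower end of detection, while PDGFRB and COL1A1 passed a mean of 10. The fibroblast sum of 769-P was 298 to 330 with BCAA and 248 to 264 without, and did not overlap between conditions. The part of these genes in the results below was not tested.

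Integrins are receptors that span the cell membrane and link the matrix outside the cell to the actin skeleton inside it. Each is a pair of 1 alpha and 1 beta chain, and the pair sets which ligand is bound: fibronectin and other proteins with an RGD motif, collagens, laminins, or counter-receptors on leukocytes. Laminins are trimers of 1 alpha, 1 beta and 1 gamma chain that form the sheet of the basement membrane beneath epithelia, kidney tubules included, and are named here by their chains, so that LM511 holds alpha5, beta1 and gamma1. Because a receptor or a trimer needs every one of its chains, the effect of BCAA was read gene by gene and then by pair and by trimer.

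In both cell lines, the laminin chains given here were lower with BCAA wherever they passed the test, and none was higher. In 769-P, 5 of 10 tested laminin chains fell and 0 rose, and in CAKI-1, 4 of 10 fell and 0 rose, by limma at an adjusted p under 0.05. Integrins moved both ways. In 769-P, 9 of 23 tested (39.1%) were higher and 5 (21.7%) lower, the latter near the 18.2% of all genes called lower. In CAKI-1, 5 of 24 (20.8%) were higher and 6 (25.0%) lower. FN1 went opposite ways, higher with BCAA in 769-P and lower in CAKI-1. In bulk RNA, fewer cells that express a gene and less RNA of it per cell cannot be told apart. Over all members, 10 of 34 (29.4%) were higher in 769-P, where 20.3% of all genes tested were called higher, and 10 (29.4%) were lower, against 18.2% of all genes. In CAKI-1, 5 of 35 (14.3%) were higher, against 10.8% of all genes, and 11 (31.4%) were lower, against 9.05%. The median log2 fold change of the laminin chains was -0.13 in 769-P and -0.31 in CAKI-1, beside -0.02 and -0.01 over all genes tested, and that of the integrins was 0.13 and -0.19.

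Of the 33 members tested in both lines, 8 (24.2%) were called lower in both, namely ITGA3, ITGB1, ITGB2, ITGB4, LAMA5, LAMB1, LAMB2 and LAMB3, while 5.83% of all genes tested in both were called lower in both. ITGA5, ITGAE and ITGB6 were called higher in both (3 of 33, 9.09%), against 8.53% of all genes. FN1 was the only member called in opposite directions (1 of 33, 3.03%, against 1.32% of all genes). These calls rest on 2 libraries per condition. In CAKI-1, limma called 0 of 21347 genes, members included, when any 1 of the 4 libraries was left out. In those fits 9 to 16 members had an unadjusted p under 0.05, and the lowest adjusted p of a member was between 0.071 and 0.23. The fold changes of the 16 called members moved by at most 0.18 on the log2 scale in them. With reads thinned to 30979773 in every library, 20 members were called in 769-P and 11 in CAKI-1. With all 4 CAKI-1 libraries, edgeR and DESeq2 on the reads each called 16 members. In 769-P, ITGA3, ITGAE, ITGB5, ITGB6, LAMA5 and LAMB2 were called in all 4 fits with 1 library left out, and the number of members called fell from 20 to 11 without BCAA library 1, 10 without BCAA library 2, 7 without no-BCAA library 1 and 8 without no-BCAA library 2. The plot of BCAA effects sets out the members whose mean reached 10.

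**Figure D1:**
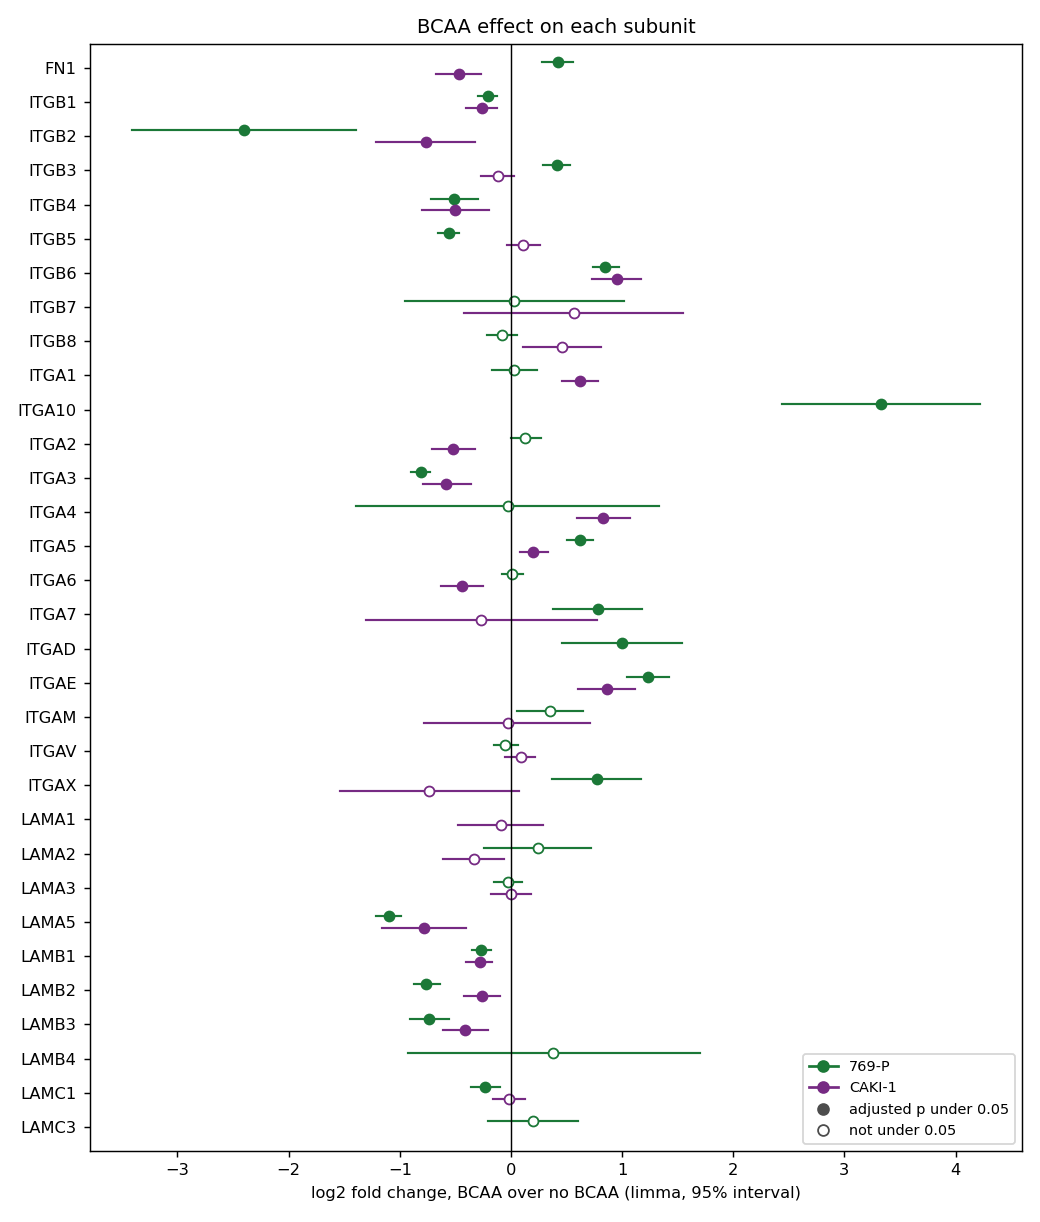
The log2 fold change (BCAA over no BCAA, limma on log2(value + 1)) of each member whose mean reached 10 in the line shown, with its 95% interval. Filled points were called at an adjusted p under 0.05, in green for 769-P and purple for CAKI-1. Every filled laminin point lies below 0 in both lines, and the FN1 points lie on opposite sides of 0 (0.42 in 769-P and -0.47 in CAKI-1).

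The DNA just upstream of 4 of these genes is shown as examples of members called in both lines. They are FN1, which moved oppositely, ITGB6, which rose, and LAMA5 and LAMB3, which fell. The RefSeq promoter table (GRCh38.p14) held 27 of the 38 members with 34 start sites. Each run is read 5′ to 3′ toward the gene, all 4 genes lie on the minus strand, and bases within an exon of a protein-coding transcript of GENCODE 29 were left off. Capitals mark the E-box CAGGTG, which SNAIL-type repressors bind and which on the other strand reads CACCTG, the cAMP response element TGACGTCA, or the GC box, which reads GGGCGG on one strand and on the other strand reads CCGCCC.
FN1, chr2:215436173-215436318: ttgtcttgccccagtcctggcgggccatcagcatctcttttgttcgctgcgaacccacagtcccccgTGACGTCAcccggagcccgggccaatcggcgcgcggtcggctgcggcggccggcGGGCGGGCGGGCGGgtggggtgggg
ITGB6, chr2:160200314-160200522: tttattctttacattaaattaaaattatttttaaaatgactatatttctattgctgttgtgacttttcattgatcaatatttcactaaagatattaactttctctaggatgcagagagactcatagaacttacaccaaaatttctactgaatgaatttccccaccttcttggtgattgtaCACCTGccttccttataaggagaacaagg
LAMA5, chr20:62367313-62367562: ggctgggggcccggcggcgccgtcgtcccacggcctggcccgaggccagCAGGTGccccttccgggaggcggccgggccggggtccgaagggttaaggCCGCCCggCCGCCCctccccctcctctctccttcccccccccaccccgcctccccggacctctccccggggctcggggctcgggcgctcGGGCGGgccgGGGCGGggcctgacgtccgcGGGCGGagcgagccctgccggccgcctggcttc
LAMB3, chr1:209652467-209652675: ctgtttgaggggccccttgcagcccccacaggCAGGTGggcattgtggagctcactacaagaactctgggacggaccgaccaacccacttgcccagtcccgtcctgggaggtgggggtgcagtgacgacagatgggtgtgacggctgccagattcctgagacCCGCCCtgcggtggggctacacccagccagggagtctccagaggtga

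The FN1 run holds the cAMP response element 183 bases before the RefSeq start, and GC boxes that overlap each other at 129, 125 and 121 bases. ITGB6 has an E-box at 70 bases in an AT-rich stretch (30.1% G and C), LAMA5 has an E-box at 201 bases and 5 GC boxes in a GC-rich stretch (82.8%), and LAMB3 has an E-box at 218 bases and a GC box at 88. Within 250 bases upstream of a start, the E-box letters were present on either strand for 8 of the 27 members (ITGA6, ITGA11, ITGB5, ITGB6, LAMA3, LAMA5, LAMB3 and LAMB4) and in 17.5% of all 35116 promoters. These include genes that rose, fell or were not called. ITGA5, ITGB1, LAMB1 and LAMB2, also called in both lines, had a GC box but neither the E-box nor the cAMP response element. The runs shown are therefore not typical of the members called in both lines. The cAMP response element was found for FN1 alone and in 1.65% of promoters. The AP-1 motif TGANTCA was found for LAMA3 and LAMB3 and in 6.57%, with the LAMB3 match at a start other than the one shown. The GC box was found for 15 members and in 42.6%. A member was counted if any of its starts had the letters, while the percentages are shares of single promoters, so these are unlike measures. These matches describe letters only.

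Among laminin alpha chains, LAMA5 fell in both lines. LAMA5 (ENSG00000130702, chr20:62307955-62367312) encodes alpha5, the alpha chain of LM511 and LM521 in most adult basement membranes. In 769-P its values were 24547 and 21895 with BCAA and 49086 and 50030 without. Both libraries with BCAA lay far below both without, at 0.469 of the mean, a log2 fold change of -1.10 (SE 0.05, limma adjusted p 8.9e-09), which ranged from -1.18 to -1.01 with each library left out. In CAKI-1 the gene was scarce, with 112 and 124 against 190 and 216. The groups again did not overlap, with a log2 fold change of -0.78 (SE 0.17, limma adjusted p 0.0082). LAMA5 shares 363 exon bases with genes that include ADRM1 on the other strand, and ADRM1 was not called in either line (log2 fold change -0.07 in both).

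LAMA3, which encodes alpha3, a chain of epithelial laminins, was not called in either line. Its values were 2831 and 2640 with BCAA and 2740 and 2829 without in 769-P, and 2760 and 2802 against 2551 and 3040 in CAKI-1. The groups overlapped in both lines, and the 95% interval of the log2 fold change ran from -0.15 to 0.10 in 769-P and from -0.18 to 0.18 in CAKI-1. LAMA1 and LAMA2, whose products belong to the embryonic and muscle laminins, were not called in either line. LAMA2 was at 79.5 to 104 in 769-P and 525 to 809 in CAKI-1, LAMA1 at 3.67 to 14.4 and 143 to 170, and LAMA4 had at most 3 reads in any CAKI-1 library.

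Of the beta chains, LAMB1, LAMB2 and LAMB3 fell in both lines. LAMB1 (ENSG00000091136, chr7:107923799-108003255), the beta chain of LM511, was 48727 and 46436 with BCAA and 56825 and 57648 without in 769-P (log2 fold change -0.27, SE 0.039, limma adjusted p 0.00014). The CAKI-1 values were 24298 and 24163 against 29485 and 29473 (log2 fold change -0.28, SE 0.052, limma adjusted p 0.0028). The step was small, 0.831 and 0.822 of the mean without BCAA, and close to the same size in both lines, with a difference of 0.02 and a 95% interval from -0.12 to 0.15. LAMB1 was not called in 769-P without either no-BCAA library (adjusted p 0.11 and 0.12). It shares 291 exon bases with genes that include DLD on the other strand, and DLD moved the other way in 769-P (9254 and 9166 against 6665 and 6522).

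LAMB2, the beta chain of LM521 and of kidney filter laminin, was 2545 and 2532 with BCAA and 4336 and 4240 without in 769-P, a log2 fold change of -0.76 (SE 0.051, limma adjusted p 2.2e-07). CAKI-1 gave 2462 and 2659 against 2897 and 3231, a log2 fold change of -0.26 (SE 0.073, adjusted p 0.029) that was not called without a filter (0.054), after quantile normalisation (0.068), after centring on the median (0.07) or with reads thinned to equal depth (0.09). The fall was larger in 769-P, by -0.50 on the log2 scale (SE 0.09, limma interaction, adjusted p 0.0014). LAMB3 encodes beta3, a chain of epithelial basement membranes. Its values were 1767 and 1460 with BCAA against 2615 and 2734 without in 769-P (log2 fold change -0.74, SE 0.082, limma adjusted p 1.6e-05). In CAKI-1 they were 2656 and 3326 against 4016 and 3888 (log2 fold change -0.41, SE 0.091, adjusted p 0.0083), with the library at 2656 setting much of the step, since the fold change was -0.25 without it. The CAKI-1 call of LAMB3 was also lost after quantile normalisation (adjusted p 0.058) and with thinned reads (0.051). LAMB3 in 769-P was not called without either no-BCAA library (adjusted p 0.095 and 0.10). LAMB4 was near the lower end of detection, at 7.45 to 17.1 in 769-P and 1.66 to 5.84 in CAKI-1, and was not called.

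LAMC1 (ENSG00000135862, chr1:183023460-183145592) encodes gamma1, the chain most trimers share. The 769-P values were 45756 and 39369 with BCAA and 49473 and 50213 without, a log2 fold change of -0.23 (SE 0.058, limma adjusted p 0.007). Without BCAA library 2, at 39369, the fold change was -0.12 (adjusted p 0.086), and without either no-BCAA library the adjusted p was 0.30 and 0.33. The call was also lost when all genes were tested without a filter (adjusted p 0.076), after quantile normalisation (0.10) and after centring on the median (0.056). In CAKI-1 LAMC1 was 26274 and 24300 against 24205 and 26952, which overlap (log2 fold change -0.02, 95% interval -0.16 to 0.13). LAMC3, listed for 769-P only, was at 110 to 134 and was not called.

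**Figure D2:**
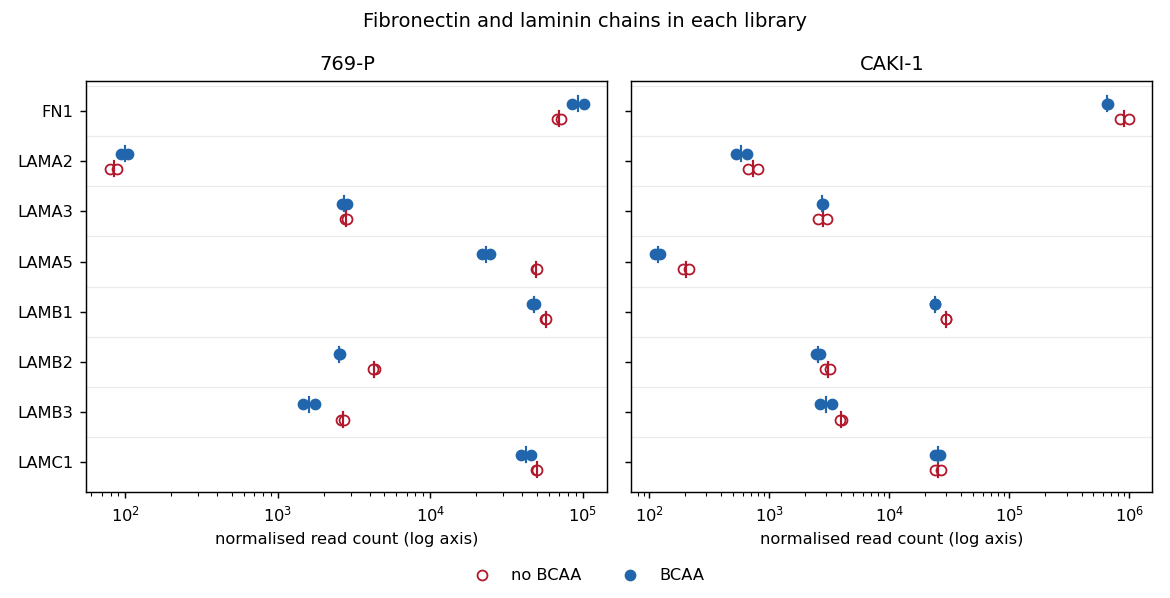
Normalised read counts (log axis) of FN1 and of the laminin chains with a mean of at least 10 in both lines, 1 point per library, in blue with BCAA and red without, with a bar at each mean of 2. LAMA5 in 769-P shows the widest gap among the laminin chains drawn, LAMA3 overlaps in both lines, and FN1 lies to the right with BCAA in 769-P and to the left in CAKI-1.

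The chains were then read by trimer. Of 13 laminin trimers, 8 in each line had every chain at a mean of at least 10, and each of these had at least 1 chain that fell and none that rose. All chains of LM511 and LM521 fell in 769-P. In CAKI-1 no trimer had all of its chains called, since LAMC1 and LAMA3 were not. Per kb of the longest protein-coding transcript, LAMA5 was the scarcest chain of LM511 in both lines, with a mean level of 3180 normalised reads per kb in 769-P beside 9090 for LAMB1. In CAKI-1, LAMA5 had only 14.0 per kb beside 4660 for LAMB1.

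The makeup of the alpha and beta chains was read as a share of summed values per kb. Among alpha chains, LAMA5 was 88.6% and 88.1% with BCAA and 94.2% and 94.1% without in 769-P, where LAMA3 was 10.9% and 11.4% against 5.63% and 5.70%. In CAKI-1 the order was different within the line, with LAMA3 at 69.8% to 76.6%, LAMA2 at 15.8% to 20.8% and LAMA5 at 2.79% to 4.85%. Among beta chains, LAMB1 led in every library, with 90.8% and 91.1% with BCAA and 87.8% in both libraries without in 769-P, and 77.1% to 80% in CAKI-1. LAMB2 was 4.82% and 5.05% against 6.81% and 6.57% in 769-P, and LAMB3 was 4.41% and 3.83% against 5.41% and 5.58%. In CAKI-1 the LAMB3 shares overlapped, at 11.7% and 14.2% with BCAA and 14.2% and 13.7% without. These shares have no test of their own.

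FN1 (ENSG00000115414, chr2:215360440-215436172) encodes fibronectin, the matrix protein bound by alpha5beta1 and the alphaV integrins and a classic mesenchymal gene. 769-P gave 101620 and 85622 with BCAA and 67669 and 71950 without, so that both libraries with BCAA were above both without. The log2 fold change was 0.42 (SE 0.065, limma adjusted p 0.00025). The call was lost without BCAA library 1, at 101620 (log2 fold change 0.30, adjusted p 0.09), and without either no-BCAA library (adjusted p 0.21 and 0.16). In CAKI-1, FN1 had the highest mean value of all 24190 genes and took 1.65% and 1.68% of reads with BCAA and 2.1% and 2.48% without. Its values were 650185 and 659678 against 830606 and 990389, a log2 fold change of -0.47 (SE 0.091, limma adjusted p 0.0037). Quantile normalisation, which gives the top-ranked gene the same value in every library by construction, set this change to 0.00.

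Whether the effect of BCAA on FN1 differed between the lines was tested directly. The effect in 769-P exceeded that in CAKI-1 by 0.89 on the log2 scale (95% interval 0.63 to 1.14, limma interaction, adjusted p 0.00014). With each of the 8 libraries left out in turn the difference was between 0.76 and 1.02. FN1 was 1.34 times its level without BCAA in 769-P and 0.719 times in CAKI-1. The interaction term tests whether the effects differ, and the opposite directions rest on the calls within each line.

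Among the receptors for fibronectin and other RGD ligands, ITGA5 rose in both lines. ITGA5 (ENSG00000161638, chr12:54395261-54419460) encodes alpha5, the partner of beta1 in the main fibronectin receptor. Its 769-P values were 7130 and 6483 with BCAA and 4378 and 4483 without, a log2 fold change of 0.62 (SE 0.054, limma adjusted p 2.1e-06). It was not called there without either no-BCAA library (adjusted p 0.064 and 0.059), although the fold change kept to 0.55 to 0.69. Its CAKI-1 values were 5503 and 5820 against 4858 and 4963, a log2 fold change of 0.20 (SE 0.058, limma adjusted p 0.029), which was lost after quantile normalisation (adjusted p 0.14) and with reads thinned to equal depth (0.061). The rise was larger in 769-P, by 0.41 (SE 0.08, limma interaction, adjusted p 0.0021).

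ITGAV (ENSG00000138448, chr2:186590065-186680901) encodes alphaV, which pairs with beta1, beta3, beta5, beta6 and beta8. It was abundant and overlapped between conditions in both lines, at 64388 and 57952 with BCAA and 61992 and 64292 without in 769-P, and 29530 and 26570 against 26720 and 26097 in CAKI-1. Its log2 fold change was -0.05 (95% interval -0.15 to 0.06) and 0.09 (-0.05 to 0.22), with limma adjusted p of 0.49 and 0.40. The beta chains it pairs with moved in 3 ways in 769-P, with ITGB3 and ITGB6 higher, ITGB5 and ITGB1 lower and ITGB8 not called.

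ITGB6 encodes beta6, an epithelial chain whose pair with alphaV binds fibronectin and activates latent TGF-beta. It was 4553 and 4293 with BCAA and 2453 and 2438 without in 769-P (log2 fold change 0.85, SE 0.053, limma adjusted p 1.2e-07). For CAKI-1 the values were 1180 and 989 against 559 and 562 (log2 fold change 0.95, SE 0.10, limma adjusted p 8e-05). ITGB6 rose to 1.81 and 1.93 times its level without BCAA, and the effects in the lines differed by -0.09 (95% interval -0.33 to 0.15). It shares 966 exon bases with AC092153.1, a transcript on the same strand.

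ITGB3 (ENSG00000259207, chr17:47253846-47311816) encodes beta3, the chain of the vitronectin receptor and of the platelet integrin. The 769-P values were 3813 and 3816 with BCAA and 2772 and 2988 without, a log2 fold change of 0.41 (SE 0.055, limma adjusted p 8.3e-05). Its adjusted p was 0.082, 0.084 and 0.054 without BCAA library 1, BCAA library 2 and no-BCAA library 1. The CAKI-1 values were 7151 and 7167 against 7249 and 8303, a log2 fold change of -0.12 (95% interval -0.27 to 0.03). The lines differed by 0.52 (SE 0.09, limma interaction, adjusted p 0.001). ITGB3 shares 2266 of its 4394 exon bases with AC068234.1, another protein-coding gene on the same strand. How the counting treated reads on these shared bases is not given in the sources used and was not tested.

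ITGB5, the chain of the other vitronectin receptor, was 5698 and 5528 with BCAA and 8414 and 8187 without in 769-P (log2 fold change -0.56, SE 0.045, limma adjusted p 1e-06), and was called with every library left out in turn. CAKI-1 gave 3489 and 3917 against 3477 and 3375, a log2 fold change of 0.11 (95% interval -0.04 to 0.26). The effects differed by -0.67 (SE 0.083, limma interaction, adjusted p 7e-05). ITGB8, a TGF-beta-activating partner of alphaV, was 3033 to 3482 in 769-P and overlapped between conditions. Its CAKI-1 values were 223 and 255 with BCAA and 189 and 158 without (log2 fold change 0.46, limma adjusted p 0.069).

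Because alphaV itself did not pass the test, its beta chains other than beta1 were set side by side per kb. Beta1, which also pairs with many other alpha chains, was left out of the sum. ITGB1 was at 40800 per kb with BCAA and 47300 without in 769-P. In 769-P, ITGB5 made up 36.4% and 36.0% of the summed beta3, beta5, beta6 and beta8 value with BCAA and 54.9% and 52.9% without. ITGB6 was 27.2% and 26.2% against 15% and 14.7%, and ITGB3 26.7% and 27.2% against 19.8% and 21.1%. The sum itself hardly differed, at 3578 and 3510 per kb with BCAA and 3507 and 3540 without. In CAKI-1, ITGB3 led in every library (61.2% to 69.5%), and ITGB6 was 8.81% and 7.22% with BCAA against 4.35% and 4.02% without.

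**Figure D3:**
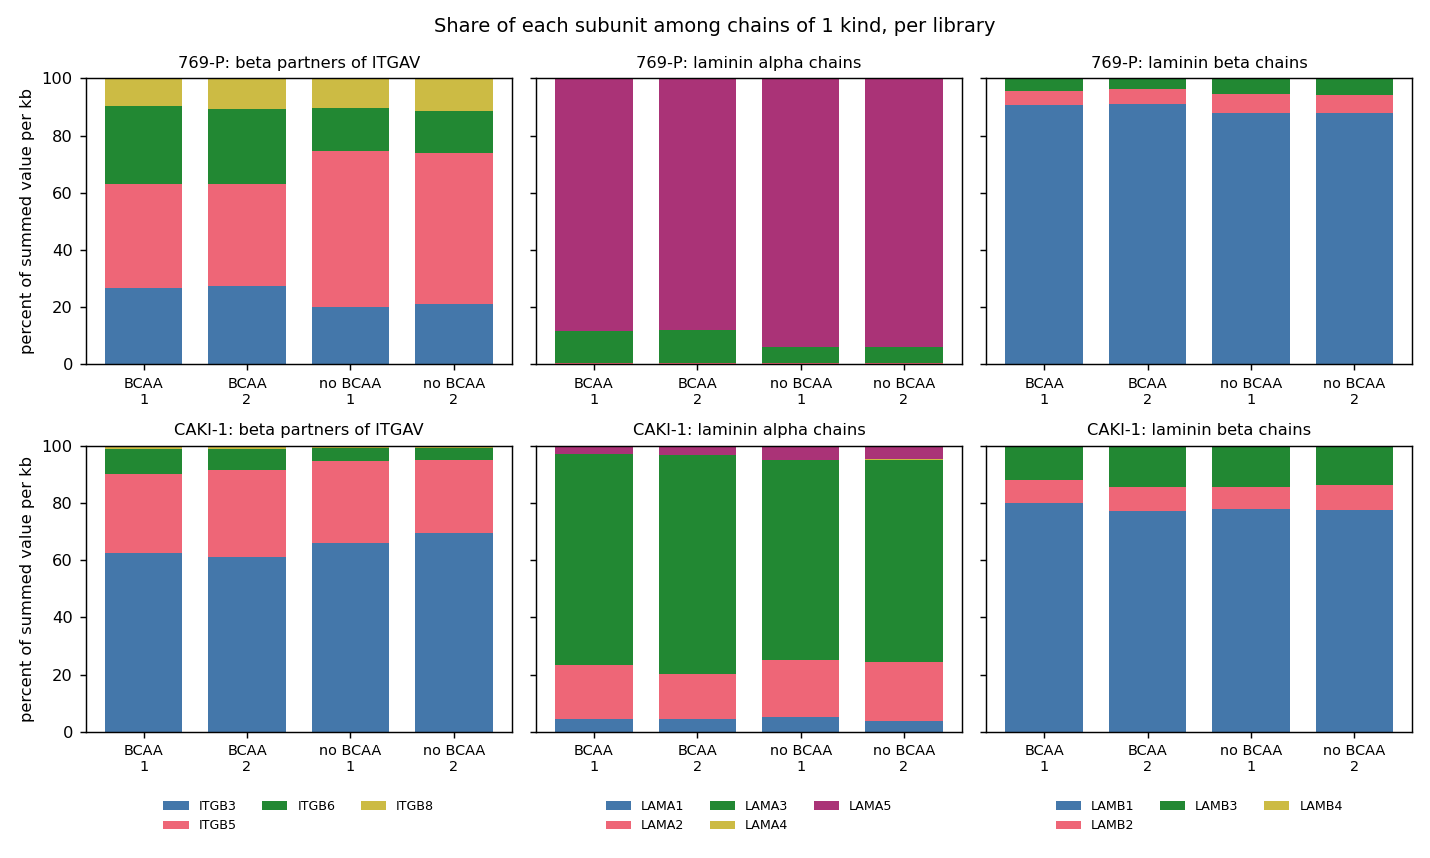
Share (percent of summed normalised read count per kb of transcript) of each chain within 3 sets, with 1 bar per library. The sets are the beta partners of ITGAV other than ITGB1 (ITGB3, ITGB5, ITGB6 and ITGB8), the laminin alpha chains and the laminin beta chains. In 769-P the ITGB5 share is 36.4% and 36.0% with BCAA against 54.9% and 52.9% without, and the LAMA5 share of 769-P is 88.6% and 88.1% against 94.2% and 94.1%.

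ITGB1 (ENSG00000150093, chr10:32900319-33005792) encodes beta1, the chain shared by most matrix receptors, and ranked 7 by mean value in 769-P and 15 in CAKI-1. It was 158502 and 150494 with BCAA and 177505 and 180452 without in 769-P (log2 fold change -0.21, SE 0.038, limma adjusted p 0.00072). For CAKI-1 the values were 97100 and 90907 against 112202 and 113568 (log2 fold change -0.26, SE 0.06, limma adjusted p 0.0094). The groups did not overlap, and the fall was small and of like size, with a difference of 0.05 (95% interval -0.10 to 0.20). After quantile normalisation ITGB1 was called in neither line (log2 fold change -0.07 and -0.18, adjusted p 0.35 and 0.15), and after centring on the median it was not called in CAKI-1 (0.052). The 769-P call held in only 1 of the 4 fits with a library left out, with the adjusted p at 0.059, 0.19 and 0.21 without BCAA library 2 and the no-BCAA libraries. ITGB1-DT, a noncoding gene that starts beside it and shares 42 exon bases, was also lower in both lines (338 and 351 against 530 and 470 in 769-P, 614 and 890 against 1299 and 1257 in CAKI-1).

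Of the laminin receptors, ITGA3 fell in both lines. It encodes alpha3, the partner of beta1 in the main receptor of LM511 on epithelial cells, and it had the highest value per kb of the alpha chains in both lines (23600 and 14500). Its 769-P values were 85861 and 81128 with BCAA and 144465 and 149071 without, a log2 fold change of -0.81 (SE 0.04, limma adjusted p 1.4e-08) that ranged from -0.86 to -0.77 with each library left out. The CAKI-1 values were 49894 and 64469 against 83083 and 86086 (log2 fold change -0.58, SE 0.096, limma adjusted p 0.0016). The libraries with BCAA were far apart there, and the fold change was -0.39 without BCAA library 1 and -0.76 without BCAA library 2. Quantile normalisation left it at -0.44 (adjusted p 0.084). The difference between the lines was -0.24 (95% interval -0.50 to 0.02).

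ITGB4 encodes beta4, which pairs with alpha6 in the hemidesmosome, the anchor of epithelia to laminin. It was 432 and 453 with BCAA and 646 and 615 without in 769-P (log2 fold change -0.51, SE 0.094, limma adjusted p 0.00095). CAKI-1 gave 311 and 400 against 471 and 531 (log2 fold change -0.50, SE 0.14, limma adjusted p 0.023). The difference between the lines was -0.01 (95% interval -0.39 to 0.38). In 769-P the adjusted p was 0.064 to 0.076 with each library left out, and in CAKI-1 the fold change was -0.32 without BCAA library 1. The CAKI-1 call was lost after quantile normalisation (adjusted p 0.087) and with reads thinned to equal depth (0.10). ITGA6, which encodes the alpha chain of that receptor, was 7267 and 7529 against 7338 and 7309 in 769-P (log2 fold change 0.01, 95% interval -0.08 to 0.11). Its CAKI-1 values were 604 and 617 against 843 and 815 (log2 fold change -0.44, limma adjusted p 0.0044), and the lines differed by 0.45 (adjusted p 0.0012). ITGA7, an alpha chain of muscle laminin receptors, was 194 and 223 against 135 and 108 in 769-P (log2 fold change 0.78, SE 0.18, limma adjusted p 0.0044) and 18.0 to 43.7 with no call in CAKI-1. The ITGA7 call was lost with each 769-P library left out (adjusted p 0.081 to 0.20) and when the spread was taken from all 8 libraries (0.11). METTL7B, which overlaps ITGA7 on the other strand within 59 exon bases shared with 3 genes, also rose (713 and 779 against 301 and 221).

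Among the collagen receptors, which pair with beta1, ITGA10 rose in 769-P, and ITGA1 and ITGA2 moved in CAKI-1. ITGA10 encodes alpha10, best known from cartilage. The 769-P values were 70.5 and 83.8 with BCAA, from 93 and 98 reads, and 6.21 and 7.34 without, from 5 and 6 reads. This was 11.4 times the mean without BCAA, with a log2 fold change of 3.33 (SE 0.41, limma adjusted p 3.5e-05). The adjusted p was 0.053 and 0.058 without BCAA library 1 and 2, with fold changes of 3.45 and 3.21. In CAKI-1 the gene had 10, 3, 5 and 3 reads and no call, and the difference between the lines was 3.12 (SE 0.84, limma interaction, adjusted p 0.017). It fell to 2.31 (adjusted p 0.056) without CAKI-1 BCAA library 2 and was also not called without 769-P BCAA library 1 or 2 (0.057 and 0.086).

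ITGA1 and ITGA2 are neighbours on chr5, 30.1 kb apart, and both encode collagen-binding chains. In CAKI-1 they went opposite ways. ITGA1 was 2689 and 2404 with BCAA and 1665 and 1651 without (log2 fold change 0.62, SE 0.073, limma adjusted p 0.00018), while ITGA2 was 626 and 588 against 874 and 862 (log2 fold change -0.52, SE 0.088, limma adjusted p 0.0018). In 769-P neither was called, with ITGA1 at 695 and 614 against 638 and 642, and ITGA2 at 2143 and 1992 against 1889 and 1886. Each effect differed between the lines, by -0.59 for ITGA1 (SE 0.12, limma interaction, adjusted p 0.0025) and by 0.65 for ITGA2 (SE 0.10, adjusted p 0.00046). ITGA1 shares 1273 of its 18566 exon bases with 4 other genes, among them PELO on the same strand, which was 1979 and 1975 against 1869 and 2050 in CAKI-1. ITGA11 had at most 5 reads in any library.

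ITGA4 encodes alpha4, the partner of beta1 and beta7 that binds VCAM1 and fibronectin and is typical of leukocytes. For CAKI-1 the values were 1398 and 1145 with BCAA and 665 and 761 without, a log2 fold change of 0.83 (SE 0.11, limma adjusted p 0.00033), lost when the spread was taken from all 8 libraries (adjusted p 0.09). In 769-P it had 6 to 19 reads and no call, and the difference between the lines was -0.86 (95% interval -1.88 to 0.16). ITGA9, its closest relative, had at most 3 reads in any library.

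Integrins named for leukocytes were also read, although 4 of 5 leukocyte markers were at or near 0. PTPRC, CD3E and CD68 each had a mean of at most 3 in either line, and ITGAL had at most 1 read in any library, while the fifth, ITGAM, itself a member, had a mean of 301 in 769-P and 36 in CAKI-1. ITGAE, alpha of the receptor by which T cells hold to E-cadherin, was 1194 and 1280 with BCAA and 555 and 499 without in 769-P (log2 fold change 1.23, SE 0.086, limma adjusted p 3.2e-07). The CAKI-1 values were 647 and 589 against 311 and 371 (log2 fold change 0.86, SE 0.12, limma adjusted p 0.00049). HASPIN, a mitotic kinase gene on the other strand, shares exon bases with ITGAE (505 of 6657 with it and AC116914.1) and rose as well (760 and 710 against 329 and 333 in 769-P, 246 and 211 against 82.7 and 102 in CAKI-1). Whether reads of HASPIN were counted on ITGAE was not tested.

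ITGB2, the beta chain of leukocyte integrins, fell in both lines from low values. 769-P gave 12.9 and 6.84 with BCAA, from 17 and 8 reads, and 68.3 and 42.8 without, from 55 and 35 reads (log2 fold change -2.40, SE 0.46, limma adjusted p 0.0012). The call was lost with any of the 4 libraries left out (adjusted p 0.087 to 0.14, fold change -2.81 to -1.99). CAKI-1 gave 94.4 and 81.5 against 163 and 136 (log2 fold change -0.76, SE 0.20, limma adjusted p 0.021), lost after quantile normalisation (0.064), with the spread from all 8 libraries (0.14) and with thinned reads (0.064). Its partner chains lie side by side on chr16 in the order ITGAM, ITGAX and ITGAD, 22.2 and 10.3 kb apart. In 769-P, ITGAX was 168 and 162 with BCAA and 99.4 and 94.2 without (log2 fold change 0.77, SE 0.18, limma adjusted p 0.0051), and ITGAD was 120 and 123 against 72.0 and 50.1 (log2 fold change 1.0, SE 0.25, limma adjusted p 0.0061). ITGAM was 368 and 307 against 282 and 246 (adjusted p 0.065). ITGAX and ITGAD were not called with any 769-P library left out (adjusted p 0.081 to 0.11 and 0.064 to 0.21) nor with the spread from all 8 libraries (0.05 after rounding, and 0.15). AC093520.1, which shares 146 exon bases with ITGAD, rose as well (24.3 and 26.5 against 3.73 and 7.34). In CAKI-1 the values of ITGAM, ITGAX and ITGAD were 30.8 to 40.9, 23.3 to 58.9 and 0.832 to 5.15, with no call.

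ITGA2B, the platelet alpha chain, was near the lower end of detection in 769-P, with 12 and 7 reads with BCAA and 1 and 0 reads without. The ratio of these reads per size factor was 12.4, with an exact 95% interval from 1.97 to 515 that covers counting error only. It passed the filter only through the libraries with BCAA (mean 7.54 against 0.621), so its place among the members called higher depended on that. It was called by limma (adjusted p 0.031), but not with a pseudocount of 0.1 (0.065), with thinned reads (0.067) or with any library left out (0.07 to 0.19). ITGB7 was at 12.9 to 30.2 in both lines and was not called, and 1886 of its 4481 exon bases are shared with ZNF740.

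**Figure D4:**
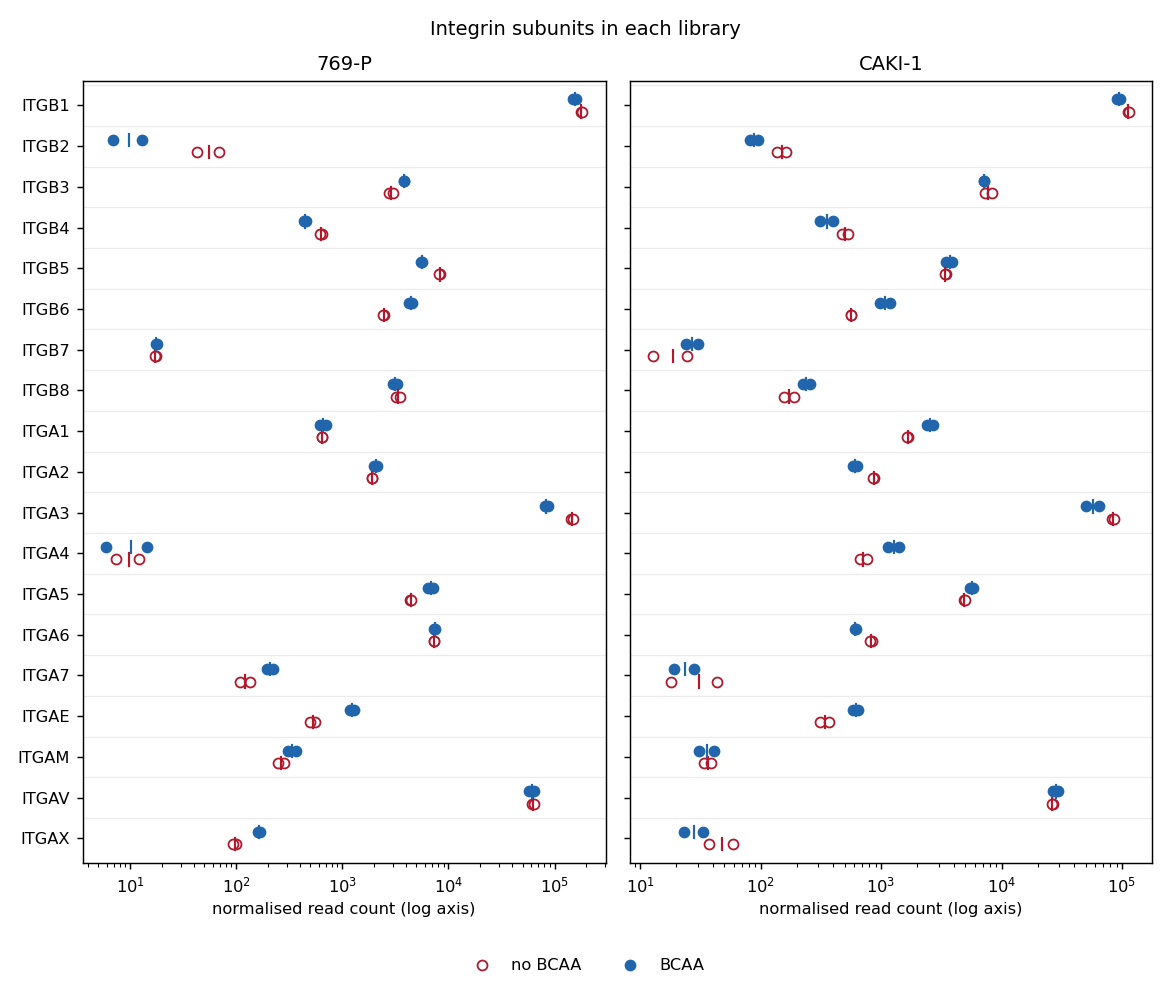
Normalised read counts (log axis) of the integrin subunits with a mean of at least 10 in both lines, 1 point per library, in blue with BCAA and red without, with a bar at each mean of 2. ITGB6 and ITGAE lie to the right with BCAA in both lines, ITGA3 and ITGB2 to the left, and ITGAV overlaps.

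By receptor, of 24 integrin pairs, 19 in 769-P and 17 in CAKI-1 had both chains at a mean of at least 10. ITGA3/ITGB1 was the only pair with both chains lower in 769-P. In CAKI-1 there were 4, namely ITGA2/ITGB1, ITGA3/ITGB1, ITGA6/ITGB1 and ITGA6/ITGB4, of which 3 bind laminin and ITGA2/ITGB1 binds collagen and laminin. None of these pairs had both chains higher. ITGA2B/ITGB3 in 769-P had both chains called higher, but ITGA2B had a mean under 10. The fibronectin receptor ITGA5/ITGB1 had its alpha chain higher and its beta chain lower in both lines. In 769-P, 5 pairs had chains called in opposite directions (ITGA5, ITGA7 and ITGA10 with ITGB1, ITGAX and ITGAD with ITGB2), and in CAKI-1 there were 3 (ITGA1, ITGA4 and ITGA5 with ITGB1). In 769-P, ITGA10 (mean 77.2 with BCAA and 6.77 without) and ITGB2 (9.87 and 55.6) reached a mean of 10 only through the condition in which they were high, so 3 of these 5 pairs depended on that filter. A further 8 pairs in 769-P and 4 in CAKI-1 had 1 chain lower and the other not called, and 3 in each line had 1 chain higher. Of these 8 pairs in 769-P, ITGAM/ITGB2 depended on the same filter through ITGB2.

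Among the alpha chains of beta1 other than alphaV, the share of alpha3 was smaller with BCAA, per kb. ITGA3 made up 84.2% and 83.9% with BCAA and 91.8% and 92.0% without in 769-P, and 83.5% and 86.9% against 91.0% and 91.1% in CAKI-1. ITGA5 made up 7.69% and 7.38% against 3.06% and 3.04% in 769-P, and 10.1% and 8.62% against 5.85% and 5.78% in CAKI-1. The sum of these alpha chains per kb was 20865 and 19779 with BCAA and 32182 and 33137 without in 769-P, and 12225 and 15186 against 18677 and 19324 in CAKI-1. All member genes together took 1.18% and 1.1% of reads with BCAA against 1.34% and 1.36% without in 769-P, and 2.31% and 2.36% against 2.88% and 3.28% in CAKI-1.

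The difference of the BCAA effect between the lines was called for 12 of the 33 members. Further up in 769-P were 7 (21.2%, against 10.9% of all genes), namely FN1, ITGA10, ITGA2, ITGA5, ITGA6, ITGAX and ITGB3, and further down were 5 (15.2%, against 10.1%), namely ITGA1, ITGB2, ITGB5, ITGB8 and LAMB2. For LAMA5 the difference was -0.32 (95% interval -0.56 to -0.08, adjusted p 0.059).

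**Figure D5:**
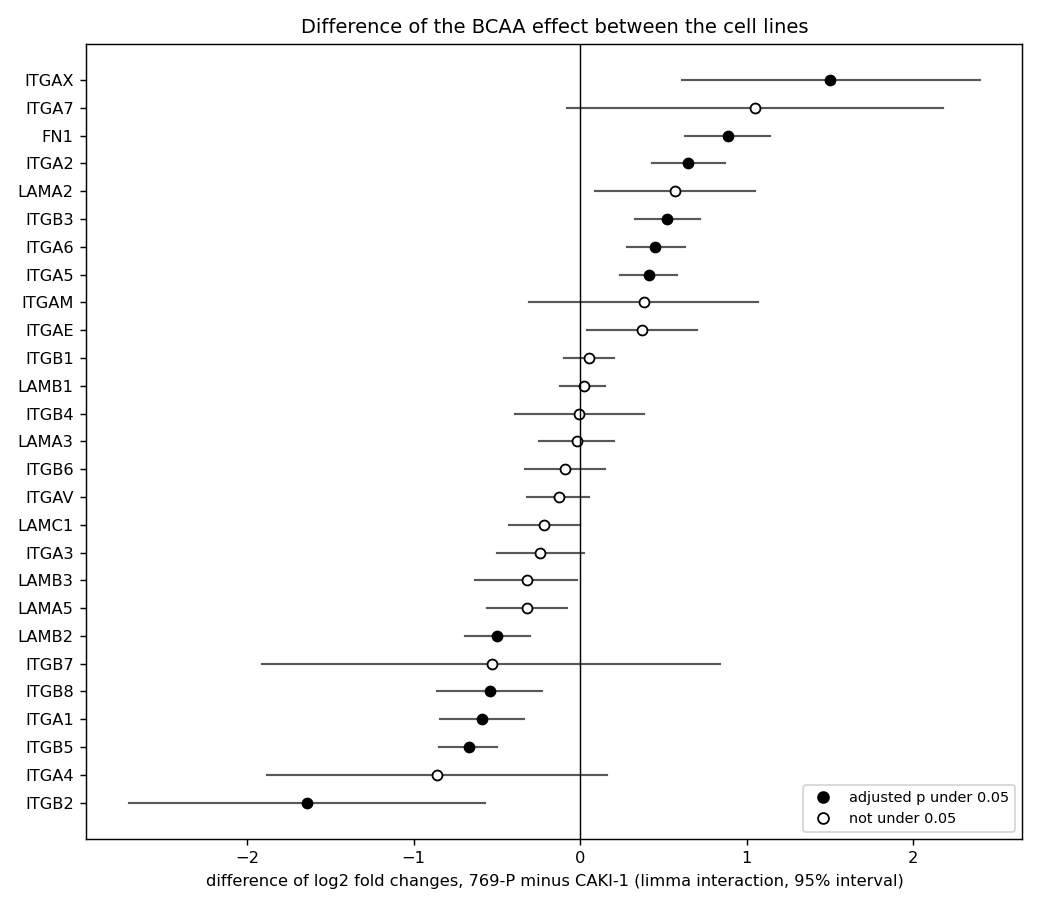
Difference of the log2 fold changes (769-P minus CAKI-1, limma interaction term over 8 libraries) of each member with a mean of at least 10 in both lines, with its 95% interval. Filled points were called at an adjusted p under 0.05. ITGAX (1.5), with a wide interval, and FN1 (0.89) are the filled points farthest to the right, and ITGB2 (-1.64) is farthest to the left, while ITGB4 (-0.01) and LAMB1 (0.02) lie close to 0.

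The proteins that work with these receptors were read from 5 lists of 70 genes. As for the members, the share of all genes called higher and lower, beside which these counts stand, was 20.3% and 18.2% in 769-P and 10.8% and 9.05% in CAKI-1. Of the adhesion linkers, which join integrin tails to actin (talins, kindlins, vinculin, paxillin and others), 22 were tested in 769-P with 5 higher and 7 lower, and 21 in CAKI-1 with 0 higher and 0 lower. The 5 of 22 higher in 769-P are near the share over all genes. Their median log2 fold change was -0.03 and 0.11. LIMS2 encodes the adaptor PINCH2. It was 500 and 413 with BCAA and 1017 and 958 without in 769-P (log2 fold change -1.12, SE 0.10, limma adjusted p 3.3e-06) and 87.6 and 74.1 against 77.0 and 72.1 in CAKI-1. The effects differed by -1.23 (limma interaction, adjusted p 0.0013). Of 4 integrin inhibitors, 1 was higher and 2 lower in 769-P, and 1 was higher and 0 lower in CAKI-1.

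Of the membrane partners, 1 of 5 tested was higher and 2 were lower in 769-P (all genes 20.3% and 18.2%). In CAKI-1, 1 of 6 was higher and 1 lower (all genes 10.8% and 9.05%). The 1 of 5 higher in 769-P is near the share over all genes. SLC3A2 encodes CD98, which binds beta1 tails and is also the heavy chain of the transporter that carries leucine, isoleucine and valine into cells. It was 6346 and 6018 with BCAA and 24145 and 24137 without in 769-P, a log2 fold change of -1.97 (SE 0.043, limma adjusted p 4.6e-11). Its CAKI-1 values were 10630 and 11151 against 11102 and 11279 (log2 fold change -0.04, SE 0.055), and the lines differed by -1.93 (SE 0.067, limma interaction, adjusted p 8.6e-10).

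Other integrin ligands went both ways, with 5 higher and 5 lower of 17 tested in 769-P (all genes 20.3% and 18.2%) and 4 higher and 5 lower of 20 in CAKI-1 (all genes 10.8% and 9.05%). TGFB3, whose latent form alphaVbeta6 and alphaVbeta8 bind, was 110 and 89.8 with BCAA and 16.1 and 13.5 without in 769-P (log2 fold change 2.67, SE 0.33, limma adjusted p 4e-05), and 78.8 and 61.6 against 23.8 and 29.6 in CAKI-1 (log2 fold change 1.36, SE 0.32, adjusted p 0.01). FGB, a fibrinogen chain, was 5436 and 5355 against 1382 and 1345 in 769-P (log2 fold change 1.98, limma adjusted p 1.7e-10), and in CAKI-1 it was 10.7 and 5.82 against 0 and 1.29, which is near the lower end of detection (adjusted p 0.048). EDIL3, an RGD protein, rose in 769-P (1767 and 1758 against 807 and 933, log2 fold change 1.02, limma adjusted p 7.8e-07) and fell in CAKI-1 (2295 and 2169 against 2887 and 2975, log2 fold change -0.39, adjusted p 0.0014). ICAM1, a ligand of the beta2 integrins, was 3320 and 2866 against 6604 and 6561 in 769-P (log2 fold change -1.09, limma adjusted p 7.4e-08) and was not called in CAKI-1 (log2 fold change 0.10, adjusted p 0.5). THBS1 was 70515 and 45031 against 22628 and 24042 in CAKI-1 (log2 fold change 1.27, limma adjusted p 0.00016) and was not called in 769-P (log2 fold change 0.10, adjusted p 0.098). TNC and ICAM2 were also called lower in 769-P, from values of at most 50.1 and 7.45. ICAM2 was 0 and 0.855 with BCAA there and 7.45 and 4.89 without, so it passed the filter only through the libraries without BCAA. FGB in CAKI-1 passed it only through the libraries with BCAA. The places of ICAM2 and FGB in the counts of called ligands in those lines depended on that. In CAKI-1, TNC was 2844 to 3256 with no call, and ICAM2 was 62.3 and 56.6 against 92.2 and 133 (log2 fold change -0.89, adjusted p 0.029).

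The other basement membrane genes and laminin receptors did not all follow the laminins. In 769-P, 4 were higher and 7 lower of 12 tested (median log2 fold change -0.41), against 20.3% and 18.2% of all genes. In CAKI-1, 4 were higher and 3 lower of 12 (median -0.01), against 10.8% and 9.05%. NID1 encodes nidogen 1, which ties laminin to collagen IV. It rose in 769-P, from 9209 and 9453 without BCAA to 19960 and 18796 with it (log2 fold change 1.05, SE 0.044, limma adjusted p 4.3e-09), and in CAKI-1, from 4397 and 4830 to 6412 and 5815 (log2 fold change 0.41, SE 0.069, adjusted p 0.0018). NTN4, which encodes netrin 4, a protein that binds laminin gamma1, was 2216 and 2211 with BCAA and 6311 and 6436 without in 769-P (log2 fold change -1.53, SE 0.049, limma adjusted p 5.9e-10). For CAKI-1 the values were 253 and 275 against 291 and 278, with no call. COL4A2, COL18A1 and AGRN, which encode a collagen IV chain, collagen XVIII and agrin, fell in both lines, with log2 fold changes of -0.54, -0.48 and -0.64 in 769-P and -0.37, -0.39 and -0.21 in CAKI-1. DAG1 and SDC1, which encode the laminin receptor dystroglycan and syndecan 1, rose in both, with log2 fold changes of 0.30 and 0.54 in 769-P and 0.30 for each in CAKI-1. SDC4, which encodes syndecan 4, fell in 769-P (log2 fold change -0.54) and rose in CAKI-1 (log2 fold change 0.33). Another collagen IV gene, COL4A1, fell in 769-P (log2 fold change -0.21) and was not called in CAKI-1 (-0.01). HSPG2 rose in 769-P (log2 fold change 0.47) and was not called in CAKI-1 (0.02). BCAM fell in 769-P (log2 fold change -0.34) and was not called in CAKI-1 (-0.01), and NID2 was called in neither line.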

How the data were processed

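RNA-seq of 769-P and CAKI-1 cells was analysed from 8 libraries, 2 per condition, grouped by cell line and treatment in their labels. For each cell line 1 table was deposited, whose signal is the read number of a gene after division by the size factor of the library. Every value (100%) was a whole multiple of 1 read within 0.01 reads, so that reads were recovered. The submitters' processing notes name Trim Galore, TopHat2 2.1.0, SAMtools 1.3.1, HTSeq 0.6.0, DESeq2, DESeq and hg38. The annotation and the strand setting of the counting are not given in the sources used here. Symbols, coordinates and transcript lengths came from GENCODE 29 (GRCh38), which named 25032 of 25431 and 23881 of 24190 identifiers.

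Genes whose mean value reached 1 were tested with limma 3.58.1 in R 4.3.3 (lmFit, eBayes with trend) on log2(value + 1) within each line, with Benjamini-Hochberg adjustment over all genes and calls at 0.05. Low genes change by more than their fold changes on this scale show. Differences between lines are the interaction term of 1 fit over 8 libraries. Intervals of log2 fold changes are limma's and rest on the spread between libraries, while the exact interval of ITGA2B and floors (3 reads) cover counting error only. Depth limits the precision of genes with few reads. Replicates differed by more than sampling noise (chi-square per degree of freedom 3.36 to 12.9).

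The members and lists were chosen with earlier results of these data known. A gene that meets the rule and a marker gene are not reported here. By the rule for named genes, FN1, ITGB1, ITGAV, ITGA5, ITGB3, LAMA5, LAMB1 and LAMC1 are given in full whatever they showed, as is each member with a mean of at least 10 called with a log2 fold change of at least 0.5 in size, and partner genes are named when called with at least 1. COL4A1, COL4A2, COL18A1, AGRN, HSPG2, BCAM, NID2, DAG1, SDC1 and SDC4 were named after their values were seen. ITGA6, ITGB8 and the other members are described more briefly. Alternatives changed the pseudocount (0.1 and 5), the filter, the scaling, the threshold, the spread, the libraries, a replicate block and the test (edgeR 4.0.16 and DESeq2 1.42.0 on recovered reads). Reads thinned to 30979773 per library were added after seeing the data. Limma, edgeR and DESeq2 within each line, and the limma interaction, were first run on simulated reads with known changes. The edgeR and DESeq2 interaction tests and the other alternatives were not run on simulated reads.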

Additional observations from a re-analysis of the deposited data

Results flagged for a closer look

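The effect of BCAA differed between the cell lines, by the limma interaction term over 8 libraries at an adjusted p under 0.05, for 12 members, each given as the log2 fold change in 769-P minus that in CAKI-1. For FN1 the difference was 0.89, with a rise in 769-P and a fall in CAKI-1. It was 3.12 for ITGA10, 1.5 for ITGAX, 0.65 for ITGA2, 0.52 for ITGB3, 0.45 for ITGA6 and 0.41 for ITGA5. It was -1.64 for ITGB2, -0.67 for ITGB5, -0.59 for ITGA1, -0.54 for ITGB8 and -0.50 for LAMB2.

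ITGA10 and ITGAX rest on at most 62 reads in any CAKI-1 library, and ITGB2 on at most 55 reads in any 769-P library. In 769-P the libraries with BCAA were also the deeper ones, and with reads thinned to equal depth 11 of these 12 differences were called, ITGB2 being the exception (-1.35, adjusted p 0.12).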

How the results depend on the processing

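With 1 library left out, 3 to 4 members in 769-P were called higher (10 with all libraries) and 4 to 8 lower (10 with all), and in CAKI-1, 0 were called higher and 0 lower in each such fit (5 and 11 with all). In CAKI-1, 4 members were called lower after quantile normalisation, 7 with thinned reads, and 5 when a log2 fold change of at least 0.5 was also asked. The differences between the lines were called for 9 to 14 members with each library left out (5 to 9 further up and 4 to 8 further down in 769-P, against 7 and 5 with all), and 8 of 12 kept their call throughout, the others being ITGA10, ITGAX, ITGB2 and ITGB8.

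Over the other 11 alternatives per line, 9 of 217 values of called members lost the call in 769-P (ITGA2B, ITGA7, ITGAD, ITGAX, ITGB1 and LAMC1) and 18 of 176 in CAKI-1 (FN1, ITGA3, ITGA4, ITGA5, ITGB1, ITGB2, ITGB4, LAMB2 and LAMB3). The sign turned for members near 0: ITGAV in 769-P to 0.09 after quantile normalisation and to 0.03 without BCAA library 2 (-0.12 to 0.03 with each library left out), and LAMC1 in CAKI-1 to 0.02 after quantile normalisation, 0.03 after centring on the median, 0.04 without BCAA library 2 and 0.06 without no-BCAA library 2 (-0.09 to 0.06 with each left out). FN1 in CAKI-1 became 0.00 after quantile normalisation, by construction. With reads thinned to 30979773 per library, 20 members were called in 769-P and 11 in CAKI-1.

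Libraries share only replicate numbers (correlation of same-numbered deviations -0.088 in 769-P and 0.061 in CAKI-1). With the replicate block, 11 members were higher and 10 lower in 769-P, 5 and 11 in CAKI-1, and 7 and 6 of the differences were further up and further down in 769-P. Scalings moved the median log2 fold change of all genes to at most 0.033. Depth limits members with few reads, such as ITGA2B and ITGA11.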
